A study of Mus musculus with 6 samples.

Results

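The genes described here encode the respiratory chain and the ATP synthase of the mitochondrial inner membrane. They were chosen by platform symbol: all symbols that begin with Nduf (complex I), Sdha to Sdhd (complex II), symbols that begin with Uqcr (complex III), with Cox4, Cox5, Cox6, Cox7 or Cox8 (complex IV) and with Atp5 (complex V). In all 90 of the 18194 genes measured met the rule, 44 for complex I, 4 for complex II, 8 for complex III, 17 for complex IV and 17 for complex V. Each gene is represented by 1 probe set, the one with the highest mean over all arrays. Of the 44 complex I genes 8 are Ndufaf genes, which encode assembly factors and not subunits. Ndufa11 and Ndufs6 appeared only on probe sets that also carry the symbol of a near-identical copy and were not tested.

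Levels were compared between GFP-positive and GFP-negative cells from 6-week-old mice in which 1 allele of Hes1, a repressor downstream of Notch, carries a GFP reporter and the other allele is wild type. Both groups were sorted from bone marrow as lineage-negative, cKit-positive, Sca1-positive cells, the fraction that contains blood stem cells and multipotent progenitors, and both carried the same genotype. Each group had 3 arrays, with replicate 1 labelled female and replicates 2 and 3 labelled male. How many animals gave RNA to an array, and whether arrays share animals, is not stated in the labels. The p-values therefore describe the scatter among these 6 samples, part of which may be technical. The comparison asks how progenitors with and without the reporter signal differ in transcript levels. Values are log2 intensities, on which a difference of 1 is a 2-fold change, and differences are GFP-positive minus GFP-negative.

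Complexes I and II pass electrons from NADH and succinate to ubiquinone, complex III passes them on to cytochrome c, and complex IV reduces oxygen. Complexes I, III and IV pump protons across the inner membrane, and complex V, the ATP synthase, lets them flow back to drive ATP synthesis. Long-term blood stem cells are known for a metabolism that leans on glycolysis, with oxidative phosphorylation rising as progenitors activate and differentiate. All proteins encoded by the genes named here are made from nuclear genes and imported into the mitochondrion.

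Arrays correlated with each other between 0.925 and 0.951 over all probe sets. Hes1 read 6.78, 6.79 and 7.10 across GFP-negative replicates 1 to 3 and 7.36, 7.09 and 7.84 across the GFP-positive replicates, so its array signal overlapped slightly between the groups. Its difference of 0.54 ± 0.24 (SE, n = 3 per group) did not pass (limma adjusted p = 0.78). Among markers of the sorted population, the receptor gene Kit lay between 9.69 and 10.72 and the transcription factor Myb between 12.15 and 12.45 in the 6 arrays. Of the 7 such markers measured, 4 (57.1%) had every GFP-positive array below every GFP-negative one, against 5.51% of all genes. These were Cd34, Cd48, Flt3 and Myb, with differences of -0.63 ± 0.17, -0.77 ± 0.24, -0.89 ± 0.38 and -0.21 ± 0.14. Of the 7, 2 had a positive difference. The gene for Sca1, Ly6a, was not analysed here. The T cell receptor component Cd3e lay between 5.38 and 5.98, and its partners Cd3d and Cd3g ranged from 5.29 to 5.77 and from 4.21 to 5.56. Not all genes of the T and NK cell list were this low. Cd4 ranged from 8.23 to 9.92 over both groups. Gzma rose from 4.04 to 4.86 in GFP-negative arrays to 7.11 to 8.07 in GFP-positive ones (3.17 ± 0.33). Ncr1 reached 7.38 in 1 array, GFP-positive replicate 2. One library stood apart: GFP-positive replicate 1 had the highest mean level of the endothelial and of the stromal marker genes, given with the other marker lists after the results. As a guide to background, 3 Y-linked genes lay between 3.42 and 4.69 in the 2 female arrays.

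No respiratory gene passed the test. By limma with Benjamini-Hochberg adjustment over all genes, 0 of the 90 had an adjusted p under 0.05 in either direction, as did 0 of all 18194 genes in either direction (0.0%). The smallest adjusted p among the 90 was 0.645, against 0.0956 over all genes. At an unadjusted p under 0.05, 4 of the 90 genes lay higher, against 3.33% of all genes, and 0 lay lower, against 3.38%. The 4 were Cox6b2, Cox7a1, Ndufv2 and Uqcrq. That count rested on single arrays: it was 0 without GFP-negative replicate 1 or without GFP-positive replicate 3, 1 without GFP-negative replicate 3 or GFP-positive replicate 2, and 2 without GFP-negative replicate 2 or GFP-positive replicate 1. With a variance prior that both follows intensity and is robust to outlying variances it was 10. The shares of all genes under these omissions and this prior are not given here, so these counts have no background to be read against.

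The differences were small and mostly of one sign. The median over the 90 genes was 0.12, against 0.01 over all genes, and 65 of the 90 (72.2%) had a positive difference, against 51.3% of all genes. In 20 of the 90 (22.2%) every GFP-positive array lay above every GFP-negative array, against 5.89% of all genes, and in 1 (Ndufa13) every GFP-positive array lay below, against 5.51%. These genes are measured on the same 6 arrays and are not independent of each other, so the shares are a description and carry no test. The 20 were spread over complex I (7 genes), III (2), IV (5) and V (6), and 0 of the 4 complex II genes were among them. Those of complex IV include Cox7b2, which lay below the guide to background in all arrays. Without GFP-positive replicate 1 the count was 32 (35.6%, against 10.4% of all genes), and without GFP-negative replicate 1 it was 32 (35.6%, against 10.9%). Fewer arrays separate more easily, and the count lay between 22 and 32 over the 6 omissions. With probe sets averaged per gene in place of the brightest one it was 13 (14.4%, against 6.18%). Among the 82 genes left without the assembly factors it was 19 (23.2%, against 5.89%).

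The size of the shift was bounded for many members. In 49 of the 90 genes (54.4%) the 95% interval of the difference lay within 1.5-fold in either direction, against 28.0% of all genes, but among genes with a mean of 12 or more the shares were alike, 72.1% of the 43 members and 72.8% of the 430 others. In all, 55 of the 90 differed by less than 0.2. Small differences were common elsewhere too: the median absolute difference was 0.157 over the 90 and 0.188 over all genes. A difference above 0.5 in either direction was seen in 5 genes: Cox7a1, Ndufaf5, Cox6a2, Cox6b2 and Ndufs1. Within groups the arrays were close together, with a median SD of 0.15 against 0.31 over all genes. Among genes with a mean of 12 or more the median SD was 0.10 for the members and 0.12 for the others. Most members were bright: 72 of the 90 had a mean above 10, and only Cox7b2 averaged below the guide to background. Among genes with a mean of 12 or more, the 43 respiratory genes had a median difference of 0.11 and the 430 others one of -0.02. In that range 11 of the 43 respiratory genes (25.6%) and 29 of the 430 others (6.74%) had all GFP-positive arrays on top.

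**Figure D1:**
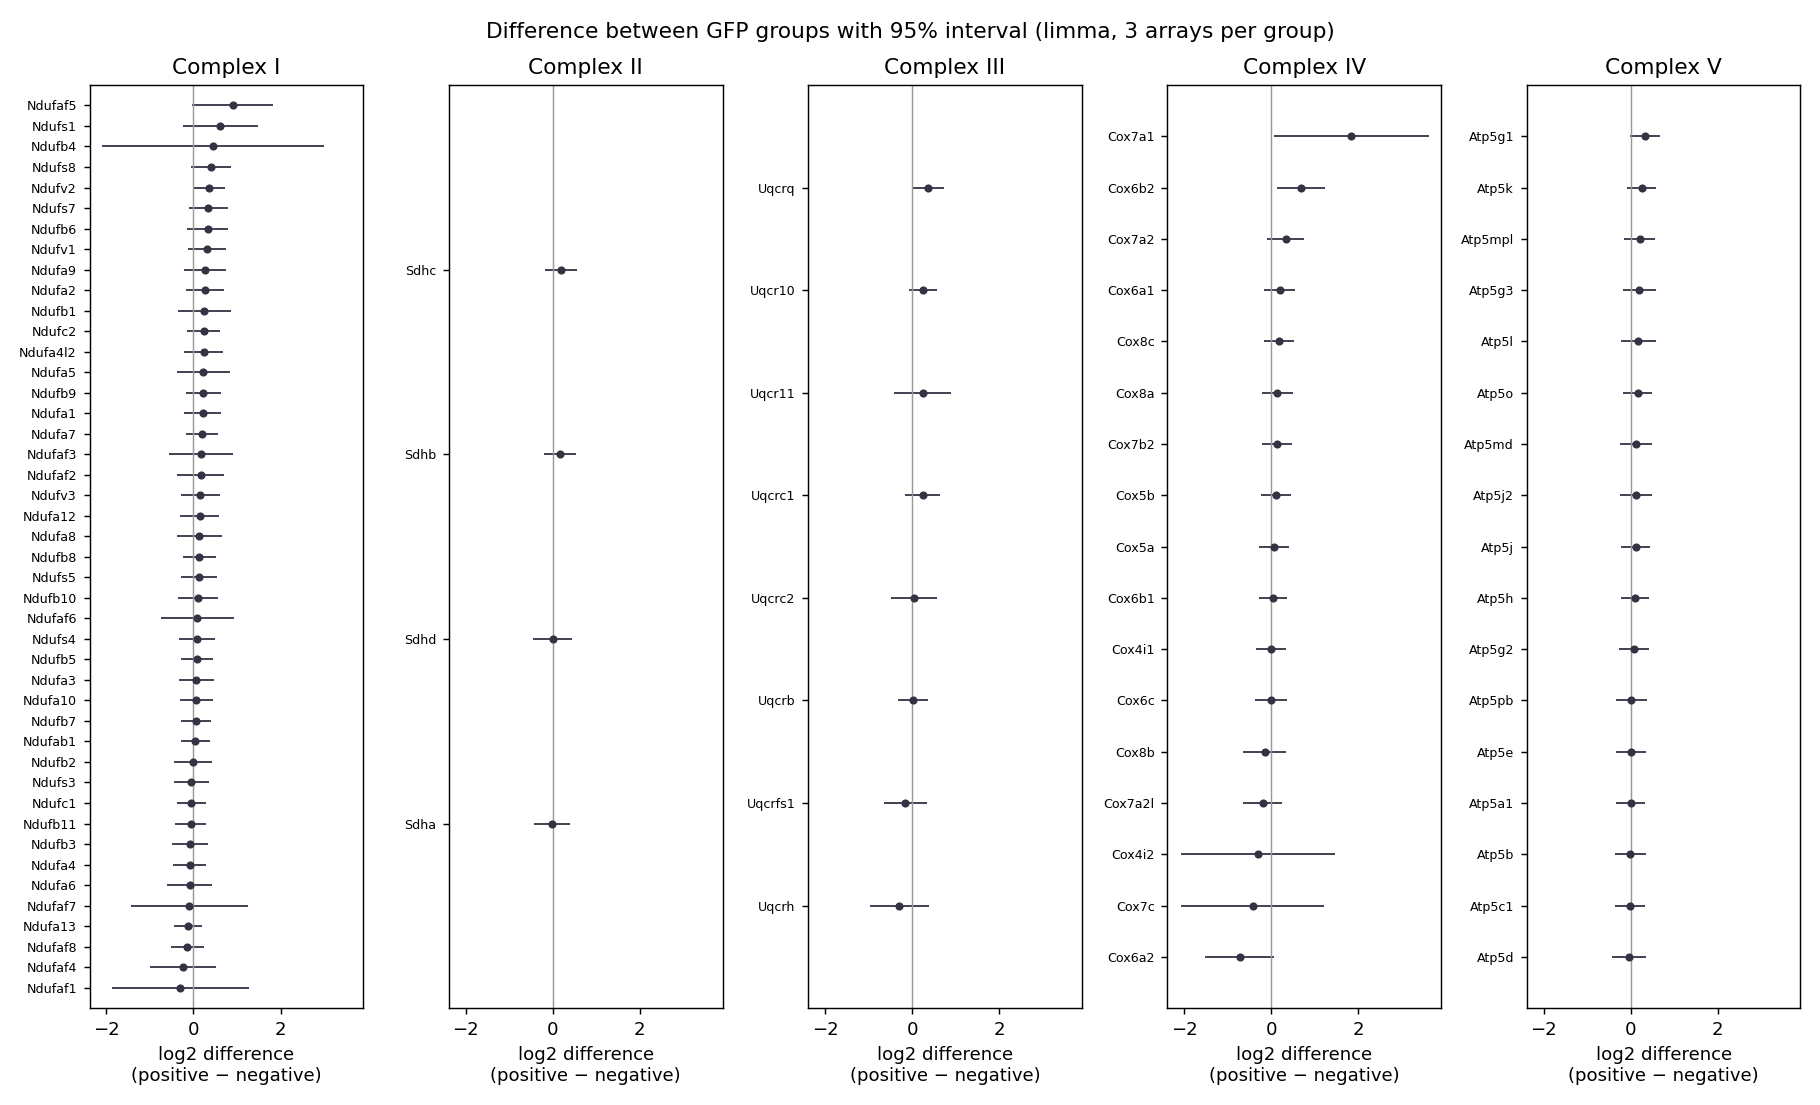
Log2 difference between GFP-positive and GFP-negative arrays (horizontal axis, log2 units) for each of the 90 genes, by complex and ordered by size. Points are the limma estimates from 3 arrays per group and bars their 95% intervals. Most points lie slightly right of 0, and the intervals of all but 4 genes include 0.

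By array, the median deviation of the 90 genes from each gene's own mean was -0.02, -0.08 and -0.03 in GFP-negative replicates 1, 2 and 3. In the GFP-positive replicates it was 0.04, 0.07 and 0.11. The groups did not overlap in this summary, but GFP-negative replicate 2 was the array in which most members (28) were lowest and GFP-positive replicate 3 the one in which most (29) were highest. GFP-positive replicate 1 was mixed, being highest for 18 members and lowest for 22. Over all genes the corresponding medians were -0.02, -0.03 and 0.00 in GFP-negative and 0.07, -0.07 and -0.01 in GFP-positive arrays, with no such order. Within replicate number 1, the female pair, the median difference of the 90 genes was 0.04, below the 0.08 of all genes. It was 0.16 in pair 2 and 0.14 in pair 3, where all genes had -0.04 and -0.02. In 34 of the 90 genes (37.8%) the GFP-positive array was the higher in every replicate number, against 13.8% of all genes. The labels do not state that arrays of equal number belong together, so differences by number are not those of paired samples. The difference of the effect between the sexes passed in 0 of the 90 genes (limma interaction, smallest adjusted p = 0.364). Each group has 1 female array, so all spread in that fit came from the males, and the lone female arrays were assumed to vary like them. The median difference of the 90 genes was 0.04 between the female arrays and 0.11 within the males, against 0.08 and -0.03 over all genes.

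**Figure D2:**
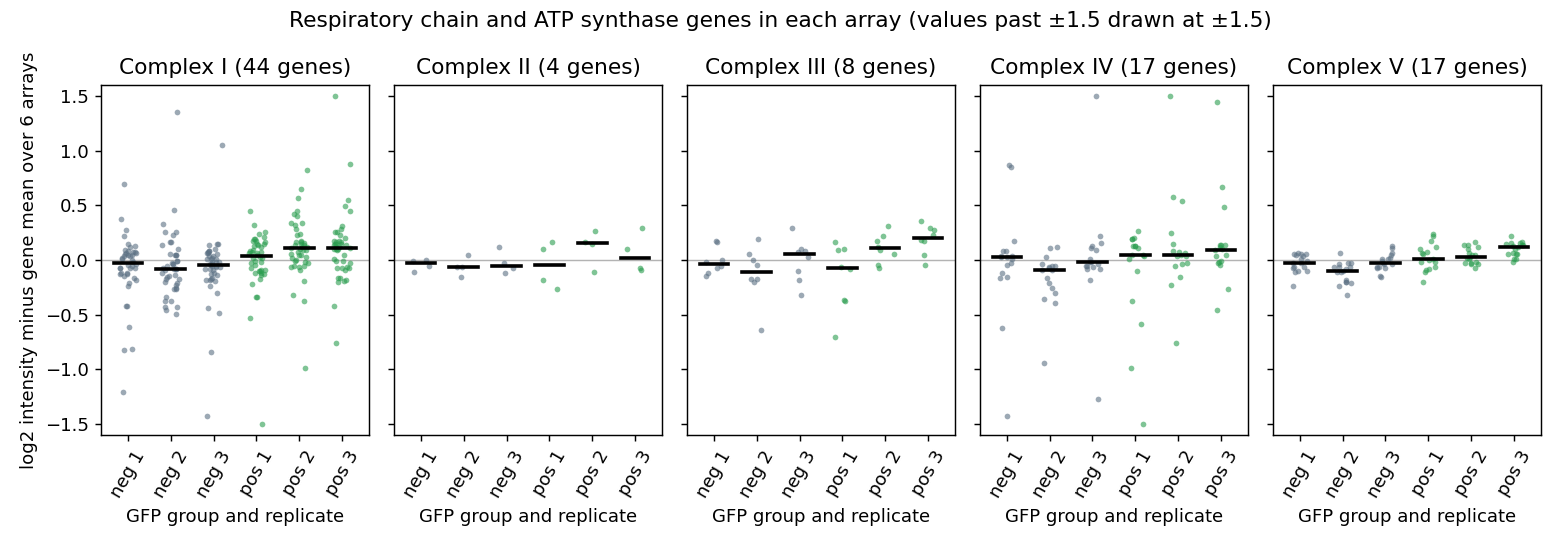
Log2 intensity minus the gene's mean over the 6 arrays (vertical axis) for every gene of complexes I to V, by array (neg and pos 1 to 3 are GFP-negative and GFP-positive replicates). Each point is 1 gene and the black bar the median. The medians of complexes I and V are below 0 in the 3 GFP-negative arrays and above it in the 3 GFP-positive arrays; those of complex IV run from -0.09 to 0.02 and from 0.05 to 0.09, and those of complexes II and III overlap between the groups.

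Many respiratory genes share promoter elements for the factors NRF1, the ETS family member GABPA, YY1 and CREB. RefSeq promoter windows (GRCm38.p6, 250 bases before to 50 after the transcription start) were found by symbol for 74 of the 90 genes, in 79 windows. Both strands were searched for GCGCANGCG (NRF1), CCGGAAG (ETS), AAGATGGCG (YY1) and TGACGTCA (CREB), and matches of different motifs overlapped in 4 of all 32851 windows. The letters and the windows printed were chosen after the array values were seen. The NRF1 letters were in 21 of the 79 windows (26.6%), against 6.25% of all windows and 9.86% of those of genes measured here. The ETS letters were in 24.1% of the 79, against 8.86% of all windows and 13.0% of those of measured genes. The YY1 letters were in 8.86%, against 1.40% and 2.09%, and the CREB letters in 3.80%, against 1.79% and 2.49%. The median array difference was 0.15 over the 20 genes with the NRF1 letters and 0.096 over the 54 without, and 0.12 over the 19 with the ETS letters and 0.13 over the 55 without. It was 0.12 over the 7 genes with the YY1 letters and -0.01 over the 3 with the CREB letters. These medians were not tested against each other. The 5 windows are printed 5′ to 3′ on the gene's strand with motif matches in capitals. Atp5k (chr5:108434350-108434649, minus strand), Cox6a1 (chr5:115348909-115349208, minus strand) and Ndufs7 (chr10:80249199-80249498, plus strand) are shown as members with matches whose groups did not overlap. Cox6b2 (chr7:4753045-4753344, minus strand) and Cox7a1 (chr7:30183921-30184220, plus strand), the genes with the smallest unadjusted p, held none of these letters.
Atp5k: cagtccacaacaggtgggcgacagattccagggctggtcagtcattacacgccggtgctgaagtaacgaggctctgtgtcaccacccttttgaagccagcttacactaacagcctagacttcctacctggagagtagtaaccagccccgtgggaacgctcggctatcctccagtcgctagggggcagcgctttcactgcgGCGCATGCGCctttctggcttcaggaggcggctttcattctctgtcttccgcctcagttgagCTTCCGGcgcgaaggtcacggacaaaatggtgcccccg
Cox6a1: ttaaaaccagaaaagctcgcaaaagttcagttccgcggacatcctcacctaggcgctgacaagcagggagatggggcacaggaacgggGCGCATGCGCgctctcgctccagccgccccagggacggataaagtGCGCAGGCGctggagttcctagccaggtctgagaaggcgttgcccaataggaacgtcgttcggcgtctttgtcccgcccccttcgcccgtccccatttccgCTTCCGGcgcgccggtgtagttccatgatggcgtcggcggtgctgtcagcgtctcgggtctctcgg
Ndufs7: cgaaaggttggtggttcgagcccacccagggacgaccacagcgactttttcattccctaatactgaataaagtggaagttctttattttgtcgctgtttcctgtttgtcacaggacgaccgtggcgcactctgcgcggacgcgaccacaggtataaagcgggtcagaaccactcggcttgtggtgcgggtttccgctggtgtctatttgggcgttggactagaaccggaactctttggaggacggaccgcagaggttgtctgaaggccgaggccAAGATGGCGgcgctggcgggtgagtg
Cox6b2: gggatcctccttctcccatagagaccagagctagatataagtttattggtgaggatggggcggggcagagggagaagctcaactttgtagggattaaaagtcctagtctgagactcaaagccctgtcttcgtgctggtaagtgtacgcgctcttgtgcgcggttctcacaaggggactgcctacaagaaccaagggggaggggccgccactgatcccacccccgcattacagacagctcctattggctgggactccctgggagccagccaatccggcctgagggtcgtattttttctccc
Cox7a1: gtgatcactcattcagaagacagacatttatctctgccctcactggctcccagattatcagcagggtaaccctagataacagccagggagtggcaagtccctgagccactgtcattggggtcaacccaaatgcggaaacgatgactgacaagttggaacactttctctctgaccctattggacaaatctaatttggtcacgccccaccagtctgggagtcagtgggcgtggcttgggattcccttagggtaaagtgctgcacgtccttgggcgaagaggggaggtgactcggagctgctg

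Complex I, the NADH dehydrogenase, had a median difference of 0.14 over 44 genes, of which 32 were positive. Its catalytic core of flavin and iron-sulfur proteins lay highest. Of the 6 nuclear core genes measured, 5 had a positive difference, with a median of 0.35, and in 3 of them all GFP-positive arrays were on top, where 5.89% of all genes were; this subgroup was set after values were seen. Ndufv2, an iron-sulfur protein of the NADH-oxidising arm, read 11.32, 11.27 and 11.45 across GFP-negative replicates 1 to 3 and 11.84, 11.65 and 11.64 across the GFP-positive replicates. The groups were separate. The difference was 0.37 ± 0.15 (limma adjusted p = 0.737). This rested on the brightest of 3 probe sets, since the others gave -0.03 and 0.00 and the average of all 3 was 0.11.

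Ndufs8, which carries iron-sulfur clusters of the arm that reduces ubiquinone, was at 11.85, 11.43 and 11.89 against 12.16, 11.97 and 12.23 (GFP-negative and then GFP-positive replicates 1, 2 and 3, an order kept below). The groups did not overlap, and the 6 probe sets of Ndufs8 all had positive differences, from 0.21 to 0.42. Its difference was 0.40 ± 0.19 (limma adjusted p = 0.804), and 0.25 without GFP-negative replicate 2. Ndufs7, the subunit with the last iron-sulfur cluster before ubiquinone, was at 12.22, 11.90 and 12.42 against 12.54, 12.53 and 12.50. Here the GFP-positive arrays lay within 0.04 of each other and the GFP-negative ones were lower and more spread, with a difference of 0.34 ± 0.18 (limma adjusted p = 0.858), and 0.20 without GFP-negative replicate 2. Ndufv1, the flavoprotein that binds NADH, was at 11.74, 11.83 and 11.67 against 12.03, 12.33 and 11.83. GFP-positive replicate 3 lay level with the highest GFP-negative array, and all 3 probe sets were positive, from 0.11 to 0.43. Ndufs1, the largest iron-sulfur subunit, was at 9.02, 8.68 and 8.05 against 8.76, 9.72 and 9.11, with overlap, and Ndufs3 at 11.09, 11.39 and 11.08 against 11.09, 11.08 and 11.26. Ndufs3 had the one negative difference among the core genes, -0.05 ± 0.16.

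The 30 accessory genes of complex I, which surround and stabilise the core, had a median of 0.13. Those with every GFP-positive array on top were 3 of 30 (10%, against 5.89% over all genes), namely Ndufa2, Ndufa7 and Ndufb6, named for that separation after their values were seen. In Ndufa13 every GFP-positive array was at the bottom. Ndufa13, also known as the cell death regulator GRIM-19, was at 13.16, 13.13 and 13.16 against 12.97, 13.09 and 13.01, a difference of -0.13 ± 0.13. Ndufa4, now regarded as a subunit of complex IV, was at 12.86, 12.70 and 12.92 against 12.61, 12.72 and 12.88 (-0.09 ± 0.15). Its paralog Ndufa4l2, known as a target of hypoxia signalling, was at 6.77, 7.24 and 7.21 against 7.36, 7.22 and 7.35 (0.24 ± 0.18). Neither separated the groups. Ndufb4 was the least certain member: its 1 specific probe set ran from 5.06 to 8.80 and gave 0.45 ± 1.04, while the 2 probe sets it shares with near-identical copies gave 0.32 and 0.20.

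The 8 assembly factor genes had a median of 0.00 and the widest spread among arrays, with a median SD of 0.45 within groups. Ndufaf5, which modifies a core subunit during assembly, had the highest difference in complex I. It was at 8.01, 9.19 and 9.10 against 9.36, 9.55 and 10.10, so the groups did not overlap, at 0.91 ± 0.38 (limma adjusted p = 0.755). GFP-negative replicate 1 lay over 1 unit below its group, and without it the difference was 0.53. Ndufaf1, a factor for the membrane arm, had the lowest, at 6.62, 8.80 and 7.38 against 7.54, 6.46 and 7.89, with wide overlap in both directions (-0.30 ± 0.64).

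Complex II, succinate dehydrogenase, which also works in the citric acid cycle, had a median difference of 0.08, and all 4 intervals lay within 1.5-fold. Sdha, the flavoprotein, was at 12.10, 12.15 and 12.07 against 11.84, 12.25 and 12.21. Sdhb, the iron-sulfur protein, was at 11.19, 11.04 and 11.12 against 11.37, 11.37 and 11.11. Their differences were -0.01 ± 0.17 and 0.16 ± 0.15, and neither separated the groups. The membrane anchors Sdhc and Sdhd were at 0.19 ± 0.15 and 0.00 ± 0.18. Without probe sets whose names end in _x_at, a mark of probes that can match other transcripts, the median of complex II was 0.01, against 0.08. Those ending in _s_at, which can also match several transcripts, were kept, the Sdha probe set among them. For Sdhc the value was 0.03 without the _x_at probe sets. The other 3 probe sets of Sdha lay between 0.21 and 0.30.

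Complex III had a median of 0.15 over 8 genes, with medians of -0.07, 0.26 and 0.20 in pairs 1, 2 and 3. Its median was 0.03 with probe sets averaged per gene. Uqcrq, a small subunit next to cytochrome b, was at 11.68, 11.55 and 11.41 against 11.89, 11.85 and 12.003. The groups were separate on this probe set, with a difference of 0.37 ± 0.15 (limma adjusted p = 0.742). Its 4 probe sets disagreed, from -0.98 to 0.37, and their mean gave -0.13. Uqcr10, another small subunit, was at 12.17, 12.04 and 12.14 against 12.34, 12.34 and 12.42, also without overlap (0.25 ± 0.13), but its other probe sets gave 0.03 and -0.22 and the average of all 3 was 0.02. Uqcrh, the hinge protein that helps cytochrome c dock, had the lowest difference, at 12.86, 12.88 and 12.77 against 11.98, 13.00 and 12.64. That value, -0.30 ± 0.28, rested on GFP-positive replicate 1, and within the males it was 0.00.

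Complex IV, cytochrome c oxidase, held both the highest and the lowest difference of the 90 genes. Several of its subunits exist as a ubiquitous and a tissue-restricted isoform. The 9 ubiquitous genes had a median of 0.06 and the 7 tissue isoforms one of 0.14, with ranges of -0.43 to 0.33 and -0.72 to 1.84. The value of 0.14 is that of Cox7b2, which lay below the guide to background in all arrays. With probe sets averaged per gene the median of complex IV was 0.02, against 0.06 here. Cox6b2, known as the testis form of the subunit that faces the intermembrane space, had the smallest p of all 90 genes. It was at 10.25, 10.56 and 10.78 against 11.06, 11.01 and 11.53. Each GFP-positive array lay above each GFP-negative one. The difference of 0.67 ± 0.23 (95% interval 0.12 to 1.22) did not pass over all genes (limma adjusted p = 0.645). Its ubiquitous partner Cox6b1 was at 13.07, 13.01 and 12.99 against 13.08, 13.08 and 13.02, a difference of 0.04 ± 0.13.

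Cox7a1, the form of heart and skeletal muscle, had the largest difference of all members. It was at 5.07, 6.45 and 5.23 against 5.92, 8.40 and 7.95. These values come from 1 probe set, and the lower ones are dim. For scale, Xist, a gene expressed in females, lay between 5.06 and 5.59 in the male arrays. GFP-positive replicates 2 and 3, both male, stood high, while replicate 1 lay below GFP-negative replicate 2, so the groups overlapped. The difference was 1.84 ± 0.73 (95% interval 0.06 to 3.62; limma adjusted p = 0.737), 0.85 in the female pair and 2.33 within the males. The ubiquitous form Cox7a2 was at 13.04, 12.56 and 12.77 against 13.08, 13.20 and 13.07 (0.33 ± 0.18), and the groups did not overlap. Cox7a2l, a related protein that joins complexes III and IV in supercomplexes, lay the other way at 12.91, 13.07 and 13.17 against 12.57, 13.03 and 12.94 (-0.20 ± 0.18), and its 3 probe sets were all negative.

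Cox6a2, the muscle form of a regulatory subunit, had the lowest difference of the 90 genes. It was at 9.94, 9.17 and 9.17 against 9.20, 8.31 and 8.61. GFP-positive replicate 1 lay just above the lower GFP-negative arrays, so the groups overlapped narrowly. Both probe sets gave the same size, -0.72 and -0.70, with a limma adjusted p of 0.791 for the brighter, and without GFP-negative replicate 1 the difference was -0.47. Its ubiquitous form Cox6a1 was at 13.25, 12.97 and 13.16 against 13.33, 13.26 and 13.36 (0.19 ± 0.15), without overlap. For Cox4i2, the form linked to low oxygen, the arrays of each group spread widely, at 7.51, 6.73 and 9.24 against 6.69, 8.25 and 7.63 (-0.30 ± 0.72), and Cox4i1 was flat (-0.01 ± 0.14). Cox8b, a muscle form, was at -0.16 ± 0.20 and Cox8c, a testis form, at 0.18 ± 0.14, with its other probe set at -0.16. The ubiquitous Cox8a was at 0.14 ± 0.15 on its brightest probe set and at 0.10 and -1.08 on the others. Cox7b2, a testis form, lay between 2.96 and 3.27, below the guide to background in all arrays. Cox7c ran from 5.65 to 8.17 and had the widest spread of the ubiquitous genes, at -0.43 ± 0.67.

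**Figure D3:**
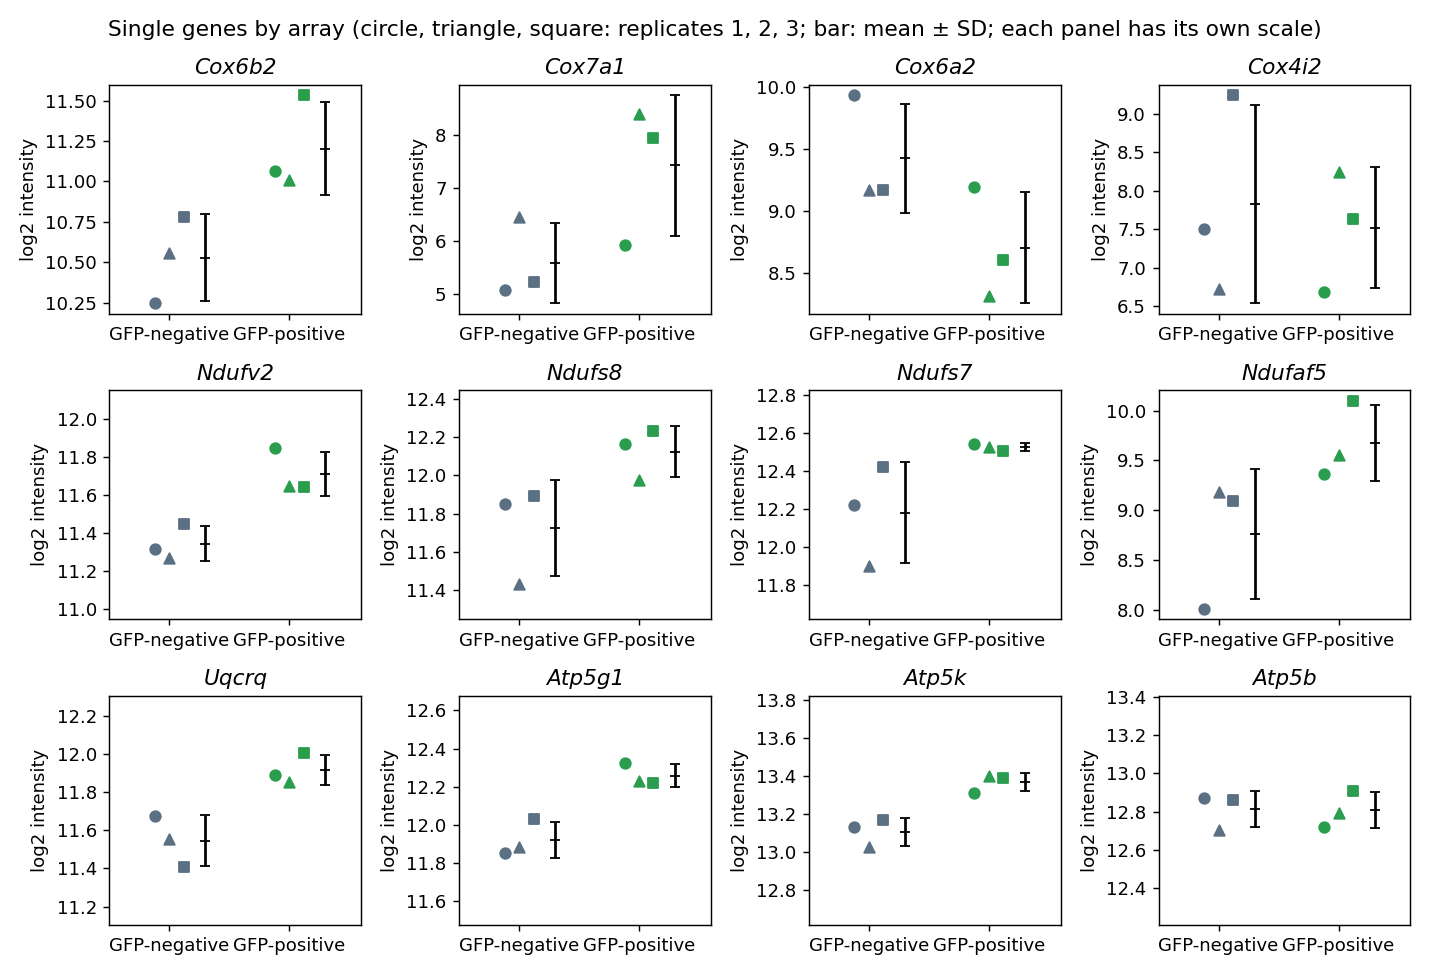
Log2 intensity (vertical axis, each panel with its own scale) of 12 respiratory genes in the GFP-negative and GFP-positive arrays; circles, triangles and squares are replicates 1, 2 and 3 and the bar is the mean ± SD. Cox6b2, Ndufv2, Ndufs8, Ndufs7, Ndufaf5, Uqcrq, Atp5g1 and Atp5k show no overlap between groups, while Cox7a1, Cox6a2, Cox4i2 and Atp5b overlap.

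Complex V, the ATP synthase, had the lowest median within-group SD of the 5 complexes (0.09), with 15 of 17 intervals within 1.5-fold. Its median difference was 0.12, and 14 of the 17 genes were positive. The 5 genes of the F1 head, where ATP is made (Atp5a1, Atp5b, Atp5c1, Atp5d and Atp5e), lay between -0.04 and 0.01 on their brightest probe sets. Other probe sets gave 0.21 and -0.01 for Atp5a1, 0.73 for Atp5c1 and 0.09 for Atp5d. Atp5b, the catalytic beta subunit, was at 12.87, 12.71 and 12.86 against 12.72, 12.80 and 12.91. The other 12 genes, which form the membrane part and the stalk that holds the head, were all positive on their brightest probe sets. Other probe sets gave -0.28 and 0.30 for Atp5g2 and -0.62 and 0.17 for Atp5j2. In 6 of the 12 genes the groups did not overlap. By comparison, 5.89% of all genes and 8.46% of those with a mean of 12 or more had all GFP-positive arrays on top. The difference between the F1 head and the rest was not tested.

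The c-ring, the rotor that protons turn, is built from 1 protein made by 3 genes. Atp5g1 was at 11.85, 11.88 and 12.03 against 12.32, 12.23 and 12.22, with all GFP-positive arrays on top. Its difference was 0.34 ± 0.14 (limma adjusted p = 0.752), the highest in complex V, and both probe sets were positive. Atp5g3 was at 12.56, 12.31 and 12.48 against 12.54, 12.65 and 12.78 (0.20 ± 0.15), and Atp5g2 at 12.53, 12.39 and 12.47 against 12.61, 12.43 and 12.56 (0.07 ± 0.14). Both overlapped between groups. Of the small membrane subunits, Atp5k, which helps the enzyme form dimers, was at 13.13, 13.03 and 13.17 against 13.31, 13.40 and 13.39, without overlap, and its 3 probe sets lay between 0.23 and 0.27. The 5 small membrane genes had a median of 0.18 and were higher in the GFP-positive array in every replicate number, as were 13.8% of all genes. The 4 genes of the peripheral stalk had a median of 0.11, and in 3 of them (Atp5h, Atp5j and Atp5o, named for that separation after their values were seen) the groups did not overlap. Over all genes 5.89% had all GFP-positive arrays on top. The differences of Atp5h, Atp5j and Atp5o were small, at 0.11 ± 0.13, 0.12 ± 0.13 and 0.16 ± 0.14.

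Genes around the respiratory chain gave 0 calls over all genes by limma in each list. The 76 genes of the mitochondrial ribosome, which translates the subunits encoded in mitochondrial DNA, had a median of 0.10, and an unadjusted p under 0.05 was met by 2 on the higher side and 1 on the lower, shares no larger than the 3.33% and 3.38% of all genes against which the counts of the other lists are also to be read. Mrps17 was at 10.12, 9.85 and 9.66 against 10.56, 10.62 and 10.71 (0.75 ± 0.17; limma adjusted p = 0.456), and Mrps9 lay the other way at -1.01 ± 0.31. The 27 genes of mitochondrial import and membrane had a median of 0.12 and 0 at that threshold in either direction. They were led by the inner membrane carrier translocase Timm22 at -0.53 ± 0.26 and the cristae protein Chchd3 at 0.46 ± 0.27. Probe sets of Chchd3 ranged from -0.32 to 0.82. The median was 0.06 over 24 genes of the citric acid cycle and pyruvate dehydrogenase, where 2 were lower and 0 higher. These were Pdk2, which inhibits pyruvate dehydrogenase, at -0.85 ± 0.27, and Suclg1, a subunit of succinyl-CoA ligase, at -0.57 ± 0.22. The 20 glycolysis genes had a median of 0.11, with 1 higher, the lactate transporter Slc16a1 at 0.80 ± 0.29, whose probe sets ranged from -0.51 to 0.80. Hk2, an inducible hexokinase, was at -1.36 ± 0.59.

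Among factors that build the complexes, the largest values went in both directions. Tmem126b, a complex I assembly factor, was at 6.35, 6.14 and 7.53 against 8.51, 8.13 and 8.03. The groups did not overlap (1.55 ± 0.40; limma adjusted p = 0.511), while the 7 genes of its list had a median of -0.03 and the next by p, Timmdc1, was at -0.33 ± 0.29. Surf1, a complex IV assembly factor, was at 10.88, 10.82 and 11.13 against 10.20, 10.11 and 10.51, all GFP-positive arrays being lower (-0.67 ± 0.18; limma adjusted p = 0.528). Sco1, which delivers copper to complex IV, was at -1.08 ± 0.38, and the 19 genes of that list had a median of 0.08, the 2 genes with an unadjusted p under 0.05 being Surf1 and Sco1. Atpaf1, a chaperone of the F1 head, was at 8.46, 7.56 and 7.69 against 8.75, 9.03 and 9.14 (1.07 ± 0.28, limma adjusted p = 0.52), the 1 gene of 4 in its list below that threshold. The ATP synthase inhibitor Atpif1 was at 0.13 ± 0.13, with probe sets from -0.85 to 0.13. The 4 complex II assembly genes had a median of -0.29, led by Sdhaf4 at -0.53 ± 0.21 and Sdhaf1 at -0.70 ± 0.55, and the 6 of complex III one of 0.20, led by Lyrm7 at 0.63 ± 0.47 and Bcs1l at 0.40 ± 0.38.

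The 17 genes of electron carriers and ubiquinone synthesis had a median of 0.11 and 0 below an unadjusted p of 0.05. First by p were Coq10a at -0.43 ± 0.20 and Coq3 at 1.26 ± 0.78. Their probe sets differed in sign, from -0.43 to 0.38 for Coq10a and from -0.46 to 1.26 for Coq3. The 20 regulators of respiratory genes had a median of -0.02 and 0 at that threshold. First among them were Tfb2m, a transcription factor of mitochondrial DNA, at 0.92 ± 0.45 and Gabpb1, a partner of GABPA, at -0.47 ± 0.23. Probe sets of Gabpb1 ranged from -0.47 to 0.43.

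**Figure D4:**
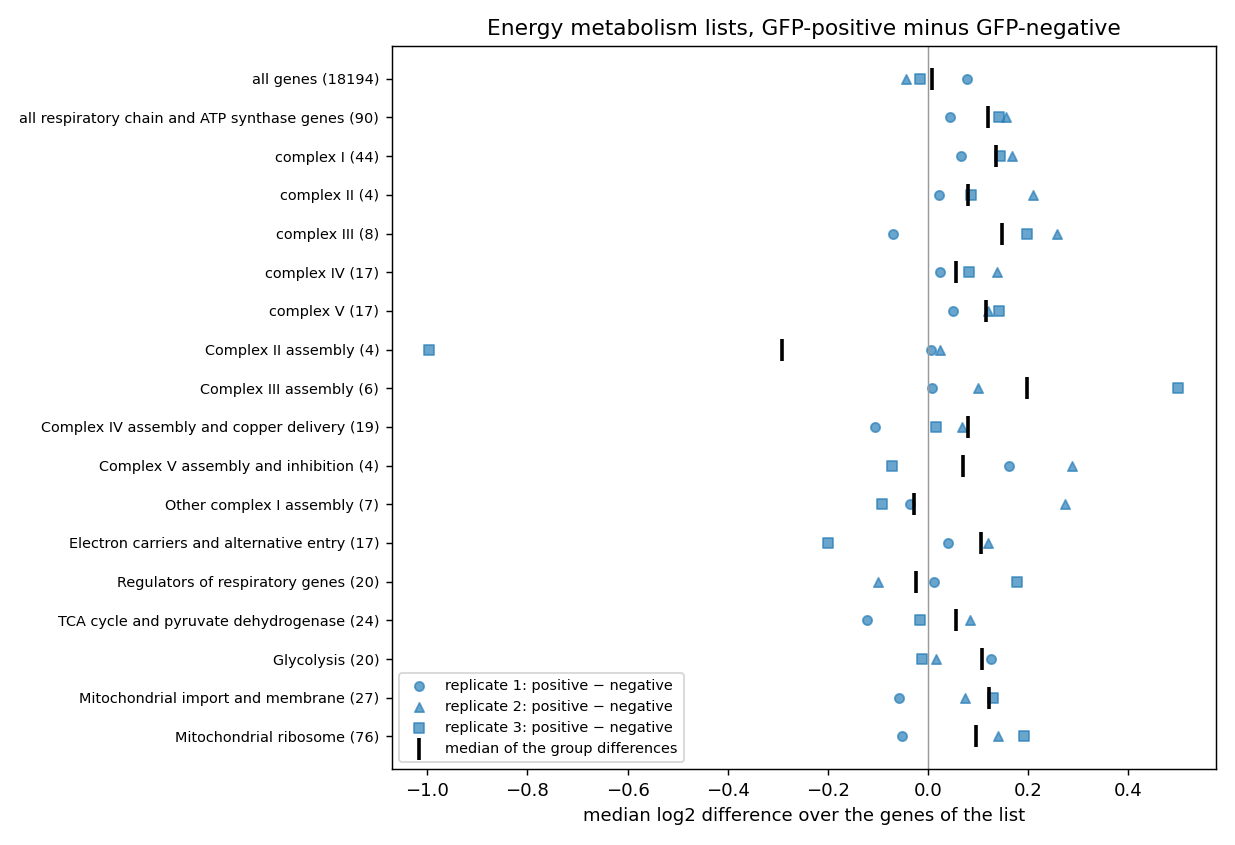
Median log2 difference over the genes of each list (horizontal axis; the number of genes in brackets), with circles, triangles and squares for the GFP-positive minus GFP-negative difference within replicate numbers 1, 2 and 3 and a bar for the median of the group differences. The 90 respiratory genes are above 0 in all 3 replicate numbers, at 0.04, 0.16 and 0.14, whereas all genes lie at 0.08, -0.04 and -0.02. Equal numbers were not taken to pair the arrays.

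Markers of other cells and of division were read on the same arrays, and 0 genes of these lists passed over all genes (limma, smallest adjusted p = 0.0956). At an unadjusted p under 0.05 in the higher direction were 12 of 17 cell cycle, 5 of 8 erythroid, 4 of 7 megakaryocyte and 6 of 9 macrophage genes. So were 3 of 7 B cell, 2 of 6 mast cell and basophil and 2 of 9 endothelial genes. The count was 1 of 8 stromal, 1 of 7 T and NK cell, 1 of 7 neutrophil and 0 of 6 plasma cell genes. Over all genes the share was 3.33%. On the lower side, met by 3.38% of all genes, were 2 of 7 markers of the sorted population. The macrophage gene Csf1r (-2.20 ± 0.40) and the mast cell gene Ms4a2 (-1.37 ± 0.44) were also lower. The mast cell list genes Cma1 (1.96 ± 0.21) and Hdc (0.87 ± 0.30) were higher. The erythroid genes Alas2 (0.00 ± 0.39), Slc4a1 (0.05 ± 0.21) and Hba-a1 (-0.04 ± 0.25) were flat. The mean level of 17 cell cycle genes lay between 9.26 and 10.55 in GFP-negative and between 10.92 and 11.28 in GFP-positive arrays, with 16 of 17 differences positive and a median of 1.48. For 8 erythroid genes it lay between 6.15 and 6.26 against 7.84 and 7.91 (7 of 8 positive), for 7 megakaryocyte genes between 7.26 and 7.61 against 8.68 and 9.21 (7 of 7) and for 9 macrophage genes between 6.34 and 7.07 against 7.92 and 8.56 (7 of 9). The mean of 9 endothelial genes ran from 6.99 to 7.21 against 6.75 to 9.83 (8 of 9 positive), and that of 8 stromal genes from 6.03 to 6.21 against 6.47 to 9.16 (6 of 8). The upper ends of both ranges are GFP-positive replicate 1. The median endothelial difference was 2.54 in pair 1, 0.33 in pair 2 and -0.13 in pair 3, and the stromal one 2.98, 0.03 and 0.04. The endothelial cadherin gene Cdh5 was at 9.83 in that array and at 4.91 and 4.65 in GFP-positive replicates 2 and 3, while the chemokine gene Cxcl12 was high in all 3, at 12.52, 9.27 and 8.33. Without GFP-positive replicate 1 the median difference of the 90 respiratory genes was 0.13. For 7 B cell genes the mean level ran from 5.96 to 6.31 against 7.48 to 8.62 over all arrays (6 of 7 differences positive). Among the remaining lists, 6 plasma cell genes were at 6.44 to 6.74 against 7.02 to 7.85 (3 of 6), 7 T and NK cell genes at 5.54 to 5.75 against 5.94 to 6.69 (5 of 7), 7 neutrophil genes at 7.40 to 9.66 against 8.32 to 10.09 (5 of 7), and 6 mast cell and basophil genes at 6.60 to 6.71 against 7.35 to 7.68 (5 of 6). For 7 markers of the sorted population the means were 10.77 to 11.35 against 10.74 to 10.98 (2 of 7). These array values have no 0, and the markers at or below the guide to background in all GFP-positive arrays numbered 1 (the B cell gene Ms4a1), against 6 in all GFP-negative arrays (Ms4a1, Pou2af1, Jchain, Ncr1, Adgre1 and Fcer1a). The part of these cells in the respiratory gene values was not tested. In bulk samples, more cells of a type and more RNA per cell cannot be told apart.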

How the data were processed

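The authors deposited 1 linear intensity per probe set and array for 45101 probe sets, made with RMA per the submitters' processing notes. The RMA version is not given in the sources used here. Per the labels' protocols, 5 ng of RNA was amplified and biotin-labelled. RMA compresses dim signals, and normalisation between arrays removes shifts common to most genes. The deposited array medians lay between 74.0 and 78.5, so log2 was taken with no pseudocount or further normalisation. Names came from the platform table: 34958 probe sets with 1 symbol were used, 932 with several and 9211 not listed were left out. The brightest probe set stood for a gene (18194 genes, no filter on dim ones).

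Groups were compared with limma 3.58.1 in R 4.3.3 (lmFit and eBayes, no covariates), with Benjamini-Hochberg adjustment over all genes and a threshold of 0.05. The pipeline was tested on simulated data. Figures used matplotlib 3.10.9 in Python 3.11.15. The members and lists were chosen with earlier results of these data known, and subgroups within complexes were set by known function after values were seen. Named were the 12 members of smallest p, the highest and lowest difference in each complex, the isoform pairs, the Sdh genes, the nuclear core of complex I and the 2 genes of smallest p in each other list; other names are marked, except single examples of a count. Alternatives were other probe set choices, a filter on the dimmest 40%, a trend and robust prior, array weights, sex or replicate number in the model, quantile normalisation again, males alone and the omission of each array. The number of arrays limits the precision.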

Additional observations from a re-analysis of the deposited data

How the results depend on the processing

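Under the alternatives, 0 respiratory genes passed over all genes, and the lowest adjusted p of the 35 named members was 0.377, against 0.645 in the fit reported. Over all genes 1 gene passed with the dimmest 40% left out, and 0 to 5 when single arrays were omitted (5 without GFP-positive replicate 3). The median difference of the 90 genes was positive throughout, and so was that of each complex. The complex II median was 0.17 over every probe set and 0.015 without probe sets whose names end in _x_at. The complex IV median was 0.018 with probe sets averaged per gene and 0.028 with arrays centred. That of complex III was 0.029 with probe sets averaged per gene and 0.029 over every probe set. When single arrays were omitted the medians ran from 0.095 to 0.17 for complex I, 0.036 to 0.13 for IV and 0.059 to 0.12 for V. For complex III they ran from 0.057 to 0.25. Members with all GFP-positive arrays on top numbered 13 with probe sets averaged per gene and 34 of 179 over every probe set (19.0%, against 5.69% of all probe sets used). They numbered 43 among males only (47.8%, against 16.3% of all genes) and 22 to 32 with single arrays omitted. With each array centred on its median 14 were on top (15.6%, against 4.84%), 66.7% of members were positive against 46.7% of all genes, and the median over all genes was -0.02. Members higher at an unadjusted p under 0.05 numbered 0 to 10 and lower ones 0 to 1. With the replicate block 0 passed, 3 were higher and 1 was lower at that threshold. Arrays with the same number deviated together with correlations of 0.12, 0.05 and 0.09, each the best match among the 3 but not all above 0.1, so the numbers were not taken to pair the arrays. Of 558 values of named members under the alternatives, 25 changed sign. The cause of these shifts was not tested.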
